A study of Mus musculus with 140 samples.

Results

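Cell cycle and proliferation genes were followed in kidneys of mice with abdominal sepsis. The set holds 41 genes, found by symbol in the deposited table of 34255 genes, and all 41 were present. They were split by role into 6 genes of the G1 phase, 2 inhibitors of cyclin-dependent kinases, 13 genes of DNA replication and nucleotide supply and 20 genes of G2 and mitosis. The G1 genes are the D-type cyclins Ccnd1, Ccnd2 and Ccnd3, the E-type cyclins Ccne1 and Ccne2, and their kinase Cdk2. The inhibitors are Cdkn1a (p21) and Cdkn1b (p27). The replication genes are Cdc6, Cdc45, Pcna, Mcm2, Mcm3, Mcm4, Mcm5, Mcm6, Mcm7, Rrm1, Rrm2, Tyms and Tk1. The mitotic genes are Ccna2, Ccnb1, Ccnb2, Cdk1, Cdc20, Aurka, Aurkb, Plk1, Bub1, Bub1b, Birc5, Ube2c, Kif11, Kif20b, Kif23, Cenpe, Foxm1, Mki67, Top2a and Hmgb2.

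All animals were male wild-type mice of the strain C57BL6/OlaHsd. Healthy controls (4 mice, labelled 0 h) were set beside sham-operated mice and mice with cecal ligation and puncture (CLP), in which gut contents leak into the abdomen and cause sepsis. Both operated kinds were examined at 4, 24 and 72 h with 4 mice each, which makes 7 groups and 28 mice. Each mouse gave 1 library of whole kidney and 4 of laser-cut tissue, namely glomeruli, arterioles, post-capillary venules and peritubular capillaries, 140 libraries of 3′ end sequencing in all. The age of the mice and any treatment beside the operation are not given in the sources used here.

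Cells enter division when D-type and then E-type cyclins activate their kinases, which releases E2F transcription factors to switch on the replication genes. Mitotic genes follow later, driven through the CHR promoter element, CCAAT boxes and the factors B-Myb and Foxm1. p21 and p27 brake this sequence, and p21 is a direct target of p53. Most tubular and endothelial cells of the adult kidney rest outside the cycle, and surviving tubular cells can divide after injury.

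Promoters of 5 members whose levels changed, or that stand for the mitotic genes, show how far these elements extend through the set. Each line gives the 250 bases before the RefSeq transcript start (build GRCm38.p6), read 5′ to 3′ along the gene's strand. Capitals mark matches on either strand to the CHR element (TTTGAA), to the CCAAT box (CCAAT) or to an E2F site (TTTCCCGC, TTTGGCGC, TTTCGCGC or TTTGCCGC), and overlapping matches run together. Kif20b lies at chr19:34922108-34922357 on the plus strand, Kif23 at chr9:61946800-61947049, Mki67 at chr7:135716380-135716629, Cdk1 at chr10:69352913-69353162 and Mcm6 at chr1:128359706-128359955, the last 4 on the minus strand.
Kif20b: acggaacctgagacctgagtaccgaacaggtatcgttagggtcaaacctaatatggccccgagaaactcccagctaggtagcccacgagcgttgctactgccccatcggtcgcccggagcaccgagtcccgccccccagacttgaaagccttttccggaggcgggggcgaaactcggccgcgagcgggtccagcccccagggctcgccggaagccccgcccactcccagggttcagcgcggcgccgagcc
Kif23: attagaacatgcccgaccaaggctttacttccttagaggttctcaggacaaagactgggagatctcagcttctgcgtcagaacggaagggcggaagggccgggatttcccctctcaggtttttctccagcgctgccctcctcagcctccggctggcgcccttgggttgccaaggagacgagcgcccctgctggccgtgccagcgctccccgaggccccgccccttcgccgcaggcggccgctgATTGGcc
Mki67: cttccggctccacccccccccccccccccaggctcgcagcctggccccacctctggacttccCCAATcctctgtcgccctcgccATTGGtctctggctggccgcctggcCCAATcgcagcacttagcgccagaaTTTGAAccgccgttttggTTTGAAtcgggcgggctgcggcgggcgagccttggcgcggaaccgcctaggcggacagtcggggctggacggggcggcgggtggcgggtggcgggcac
Cdk1: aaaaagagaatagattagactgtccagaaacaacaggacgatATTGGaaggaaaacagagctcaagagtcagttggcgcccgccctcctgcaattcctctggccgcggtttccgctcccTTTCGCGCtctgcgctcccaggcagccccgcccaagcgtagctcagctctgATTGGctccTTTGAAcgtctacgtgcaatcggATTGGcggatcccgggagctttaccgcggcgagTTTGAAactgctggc
Mcm6: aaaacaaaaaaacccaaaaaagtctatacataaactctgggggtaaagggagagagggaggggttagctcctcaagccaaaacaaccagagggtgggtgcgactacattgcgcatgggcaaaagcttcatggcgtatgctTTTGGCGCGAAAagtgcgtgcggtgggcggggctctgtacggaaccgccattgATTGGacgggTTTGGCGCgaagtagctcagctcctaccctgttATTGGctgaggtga

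The promoter table held 37 windows of 34 members among 32851 windows of all genes. CCAAT boxes were present in 75.7% of the members' windows and in 33.8% of all windows. The CHR element was present in 27% of the members' windows and 16% of all, and it lay mostly in mitotic genes, with 8 of their 17 windows (47.1%). E2F sites were present in 16.2% of the members' windows, in 30.8% of those of replication genes, and in 1.86% of all. The windows of Mki67 and Cdk1 held CHR elements and CCAAT boxes, and that of Cdk1 also held an E2F site. That of Mcm6 held E2F sites and CCAAT boxes. Kif23 had a single CCAAT box, and the Kif20b window held no match to these letters. Such matches describe the sequence and do not show binding.

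The libraries held between 4.24 and 18.3 M counts each (M for mega). Levels are given as CPM, the counts per M counts of the scaled library total. Whole kidney libraries detected 17604 to 20474 genes each. Microdissected libraries detected fewer, down to 2949 genes in a peritubular capillary library. The fitted variation between mice (biological coefficient of variation) was 0.241 in whole kidney and 1.4 to 1.94 in the microdissected compartments. In healthy mice smooth muscle markers summed to 12600 to 28300 CPM in arterioles against at most 841 CPM in the other compartments, and podocyte markers to 7970 to 9800 CPM in glomeruli. Peritubular capillary libraries did not carry their label's markers as clearly. Endothelial markers summed to 398 to 1570 CPM there and to 427 to 548 CPM in whole kidney, while proximal tubule markers summed to 61800 to 111000 CPM against 37200 to 38100 CPM. The deposited table keeps the libraries of healthy and 4 h mice in one block of columns and those of 24 and 72 h mice in another. No label calls these blocks a batch, and block and time cannot be told apart.

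Detection set what could be compared. In whole kidney 31 of the 41 members were counted in all 28 libraries, and 37 passed the filter on low counts. Ccne1, Aurkb, Bub1 and Kif11 did not pass. Bub1, a kinase of the spindle checkpoint, had counts in 6 of 28 whole kidney libraries, and Aurkb, the kinase of the chromosomal passenger complex, in 12. In microdissected tissue 4 members were counted in every library of arterioles, 9 of glomeruli, 0 of peritubular capillaries and 4 of venules. Mitotic genes were the sparsest, since 17 of 20 in arterioles, 13 in glomeruli, 17 in peritubular capillaries and 15 in venules had counts in fewer than 14 of 28 libraries. The filter passed 22, 34, 19 and 32 members in these compartments, in the same order.

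**Figure D1:**
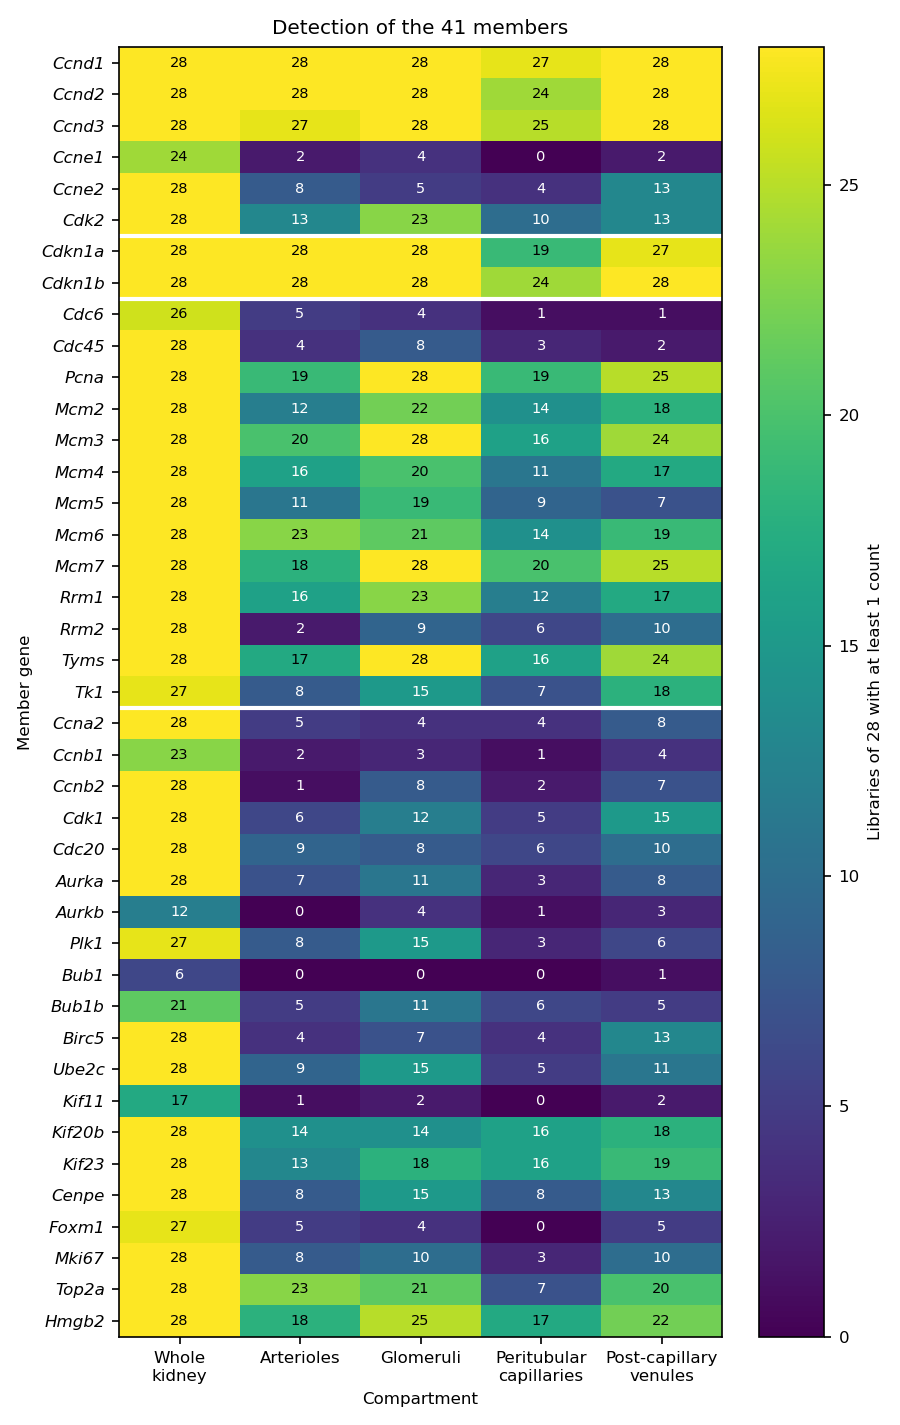
Number of libraries with at least 1 count, out of 28, for each of the 41 members (rows, grouped by role) in the 5 compartments (columns). Whole kidney is filled for nearly all members, and the mitotic rows are sparse in the 4 microdissected compartments.

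Groups were compared by edgeR's quasi-likelihood test with Benjamini-Hochberg adjustment over all genes tested (14936 in whole kidney). A gene passed at an adjusted p under 0.05, and log2 fold changes are given ± standard error, with 4 mice in each group. In whole kidney few members passed. They were 1 of 37 at 4 h after CLP against sham, where 2.24% of all genes passed, 3 at 24 h against 5.28%, and 2 at 72 h against 3.89%. These shares of members were 2.7%, 8.11% and 5.41%. They stood near the shares of all genes, each somewhat higher, and rest on 1 to 3 members. Whole kidney RNA mixes all cell types, and a change in the number of cells of a type cannot be told apart from a change of RNA in each cell.

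**Figure D2:**
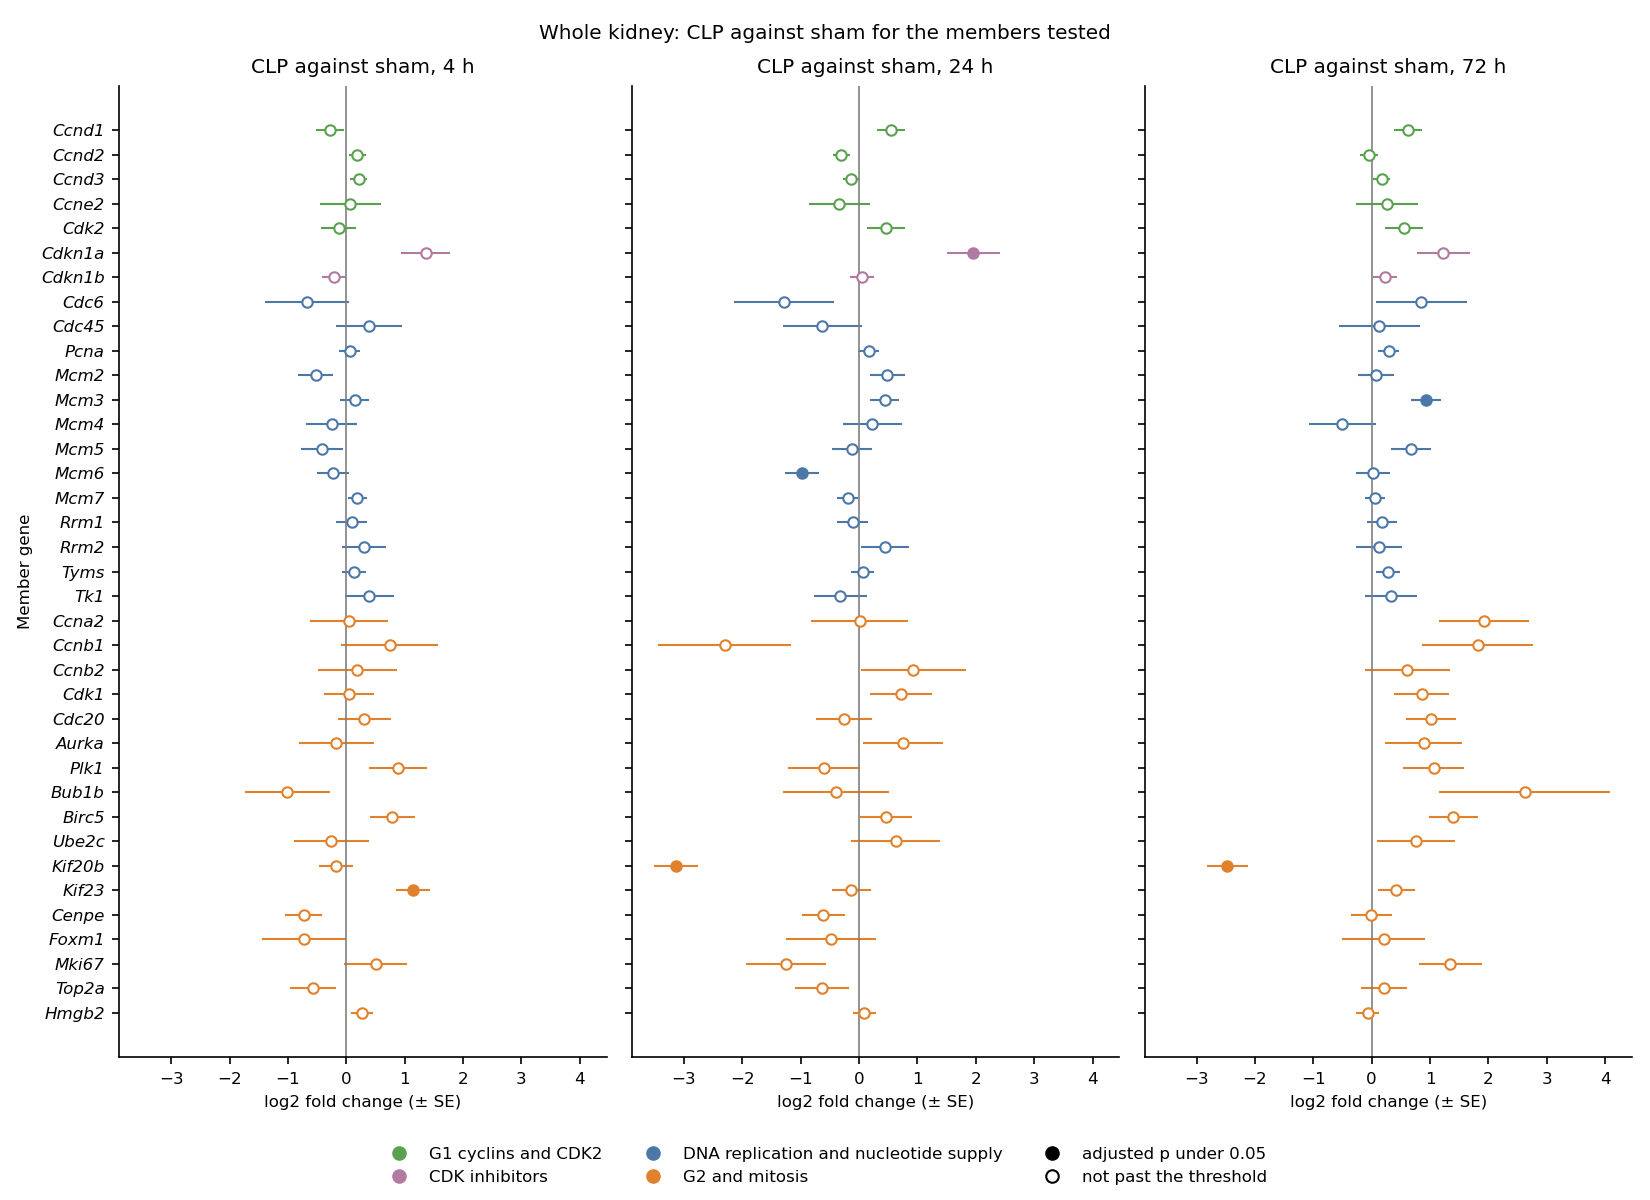
Log2 fold change of CLP against sham in whole kidney for the 37 tested members, by role, at 4, 24 and 72 h; bars are standard errors and filled points passed at an adjusted p under 0.05. Kif20b is the lowest point at 24 and 72 h, and most mitotic genes lie above 0 at 72 h.

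Cdkn1a, which encodes p21 (chr17:29090976-29100727, GRCm38), had a higher mean after CLP than after sham at each time, and the test passed at 24 h. In whole kidney of healthy mice its level was 15.7, 10.5, 16.5 and 18.8 CPM. At 4 h it was 119, 65, 30.9 and 92 CPM after sham and 189, 217, 165 and 220 CPM after CLP. The sham mice at 4 h were all above the healthy mice, and the CLP mice were all above the sham mice. The rise from healthy to sham at 4 h passed (log2 2.31 ± 0.45, edgeR adjusted p = 0.00896), where 0.937% of all genes passed, although not when the 8 libraries were fitted alone (adjusted p = 0.0593). The difference between CLP and sham at 4 h was 1.36 ± 0.42 and did not pass (edgeR adjusted p = 0.114), while it passed by DESeq2 (adjusted p = 0.0432).

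At 24 h Cdkn1a was 7.95, 16.3, 21 and 17.9 CPM after sham and 18.6, 54.3, 42.4 and 132 CPM after CLP. The groups overlapped through the lowest CLP mouse. Cdkn1a rose with CLP at this time (1.96 ± 0.45, edgeR adjusted p = 0.00861). Without the highest CLP mouse, replicate 4, the difference was 1.28 and did not pass (edgeR adjusted p = 0.0676), and it did not pass with the 8 libraries fitted alone (adjusted p = 0.175). At 72 h levels were 11.2, 12.2, 14.1 and 7.95 CPM after sham and 22.1, 35.8, 25.5 and 21.6 CPM after CLP. These groups did not overlap, and the difference of 1.23 ± 0.46 did not pass (edgeR adjusted p = 0.185), while it did with the 8 libraries alone (adjusted p = 0.00339). In the annotation the gene AC167363.2 overlaps Cdkn1a on the opposite strand, and whether counting used strand is not stated.

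**Figure D3:**
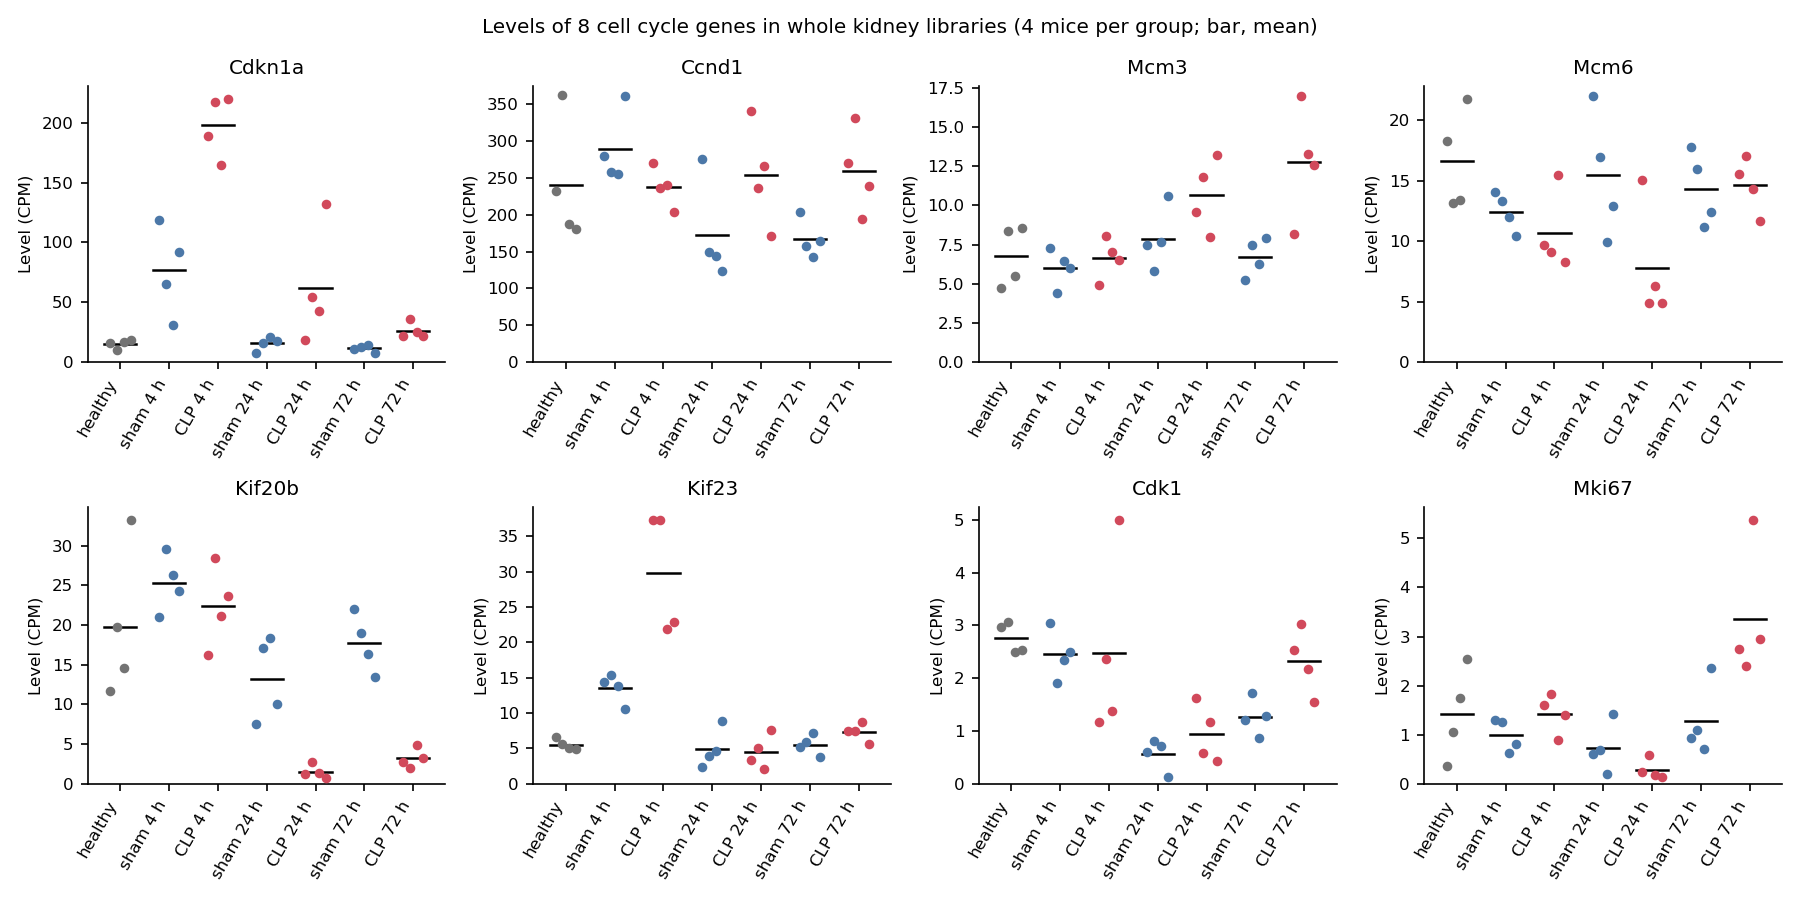
Level in CPM (axes from 0) of 8 members in each of the 28 whole kidney libraries, by group; each point is 1 mouse and the bar is the mean of 4. Cdkn1a and Kif23 are highest at 4 h after CLP, and Kif20b is lowest at 24 and 72 h after CLP.

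Other targets of p53 were counted beside p21. Of 22 tested genes of that list 4 rose at 4 h after CLP against sham, where 1.69% of all genes passed as higher. They were the antiproliferative gene Btg2 (log2 1.58, edgeR adjusted p = 2.95e-05), the kinase gene Plk3 (2.59, adjusted p = 0.000598), the stress gene Gadd45g (2.09, adjusted p = 0.00311) and the death receptor gene Fas (1.33). The median of the list was 0.40, against 0.00 for all genes. At 24 h 0 of 22 passed by edgeR, with 4 at an unadjusted p under 0.05 (15.6% of all genes). At 72 h 1 of 22, Perp, fell (-0.48), where 2.15% of all genes passed as lower. Cdkn1b, the p27 gene, did not pass in whole kidney in any comparison. Its level was 33.8 to 51.1 CPM after CLP and 46.7 to 59.3 CPM after sham at 4 h, 17.7 to 40.4 against 24 to 37.7 CPM at 24 h, and 29.8 to 41.5 against 25.1 to 34.6 CPM at 72 h. The third gene of this family, Cdkn1c (p57), was in a list of 19 further G1 regulators. It was the 1 of them to pass at 72 h for CLP against sham, where 3.89% of all genes passed. Its rise was 0.89 (edgeR adjusted p = 0.00305).

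The G1 cyclins and Cdk2 did not pass for CLP against sham in whole kidney, in 0 of 5 tested members at any of the 3 times by edgeR or DESeq2. Only Ccnd1 had an unadjusted p under 0.05, at 24 and 72 h. Ccnd1 is the cyclin that answers to growth factors. It stood at 181 to 363 CPM in healthy mice. At 24 h it was 276, 149, 144 and 124 CPM after sham and 341, 237, 266 and 171 CPM after CLP, with a difference of 0.55 ± 0.24 (edgeR adjusted p = 0.235). At 72 h it was 204, 158, 143 and 165 CPM after sham and 271, 331, 195 and 239 CPM after CLP, with a difference of 0.63 ± 0.24 (edgeR adjusted p = 0.185). Groups overlapped at both times. Ccnd1 passed at 24 h without sham replicate 1 (0.87, edgeR adjusted p = 0.0228), and at 72 h with the 8 libraries alone (adjusted p = 0.0421). Cdk2, the kinase of the E-type cyclins, did not overlap at 72 h, with 4.16 to 5.67 CPM after CLP and 2.79 to 4.02 CPM after sham (0.55 ± 0.33, edgeR adjusted p = 0.518). The sum of the 6 genes at 72 h was 440 to 549 CPM after CLP and 357 to 402 CPM after sham. Ccnd1, Ccnd2, Ccnd3, Ccne2 and Cdk2 also overlap genes on the opposite strand.

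Among the replication genes Mcm6 fell at 24 h and Mcm3 rose at 72 h, both subunits of the helicase that opens DNA at replication origins. Mcm6 (chr1:128331590-128359664), whose promoter with E2F sites is printed above, was 22, 17, 9.91 and 12.9 CPM after sham and 15.1, 4.93, 6.34 and 4.91 CPM after CLP at 24 h. Only 1 CLP mouse, replicate 1, reached the levels of the sham mice. The fall of 0.97 ± 0.29 on the log2 scale (edgeR adjusted p = 0.0458) was lost in 9 of 14 alternatives. These included leaving out sham replicate 1, 2 or 4 or CLP replicate 2, 3 or 4, with adjusted p up to 0.325 over all alternatives.

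Mcm3 (chr1:20802968-20820312) was 5.22, 7.48, 6.28 and 7.95 CPM after sham and 8.21, 17, 13.3 and 12.6 CPM after CLP at 72 h. All CLP mice were above all sham mice, the lowest by a narrow margin. The rise of 0.93 ± 0.25 (edgeR adjusted p = 0.0285) was lost in 6 of 14 alternatives, those without sham replicate 1, 2 or 3 or CLP replicate 2, 3 or 4, with adjusted p up to 0.181. At 72 h 12 of 13 replication genes had a positive log2 fold change, with a median of 0.18 against 0.03 for all genes. Pcna, the sliding clamp of the replication fork, was 15.6 to 24.6 CPM after CLP and 13.3 to 21.8 CPM after sham (0.29 ± 0.18, edgeR adjusted p = 0.552). Their summed level was 97.4 to 129 CPM after CLP and 93 to 106 CPM after sham, which overlapped. Of 31 other replication genes 0 passed at 4 or 72 h by edgeR, with 2 and 4 at an unadjusted p under 0.05 (10.3% and 13.8% of all genes).

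Kif20b, a kinesin motor of late mitosis and cell separation, gave the largest change between CLP and sham among the members that passed in whole kidney. The gene lies at chr19:34922361-34975745, and its level in healthy mice was 11.7, 19.7, 14.6 and 33.2 CPM. At 4 h it was 21, 29.6, 26.3 and 24.3 CPM after sham and 16.2, 28.5, 21.1 and 23.7 CPM after CLP, and the groups overlapped (-0.17 ± 0.29). At 24 h it was 7.47, 17.1, 18.4 and 10 CPM after sham and 1.15, 2.7, 1.34 and 0.702 CPM after CLP. At 72 h it was 22, 19, 16.4 and 13.5 CPM after sham and 2.74, 2.02, 4.87 and 3.26 CPM after CLP. Every CLP mouse at 24 and 72 h was below every sham and healthy mouse. Kif20b fell by 3.13 ± 0.38 on the log2 scale at 24 h (edgeR adjusted p = 1.54e-06) and by 2.47 ± 0.35 at 72 h (edgeR adjusted p = 2.08e-05). Both calls were kept in all 14 alternatives of each comparison. The CLP effect at 24 h was lower than at 4 h by an interaction test (-2.96 ± 0.48, edgeR adjusted p = 0.000451), which 1.84% of all genes passed. Groups that did not overlap, with CLP lower, were found in 4.04% of all genes at 24 h and 4.95% at 72 h.

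Kif20b was the 1 mitotic member of 17 tested that passed at 24 h and at 72 h. At 24 h 10 of the 17 were negative with a median of -0.25. Kif23, the sister kinesin that builds the central spindle (chr9:61915905-61946774), rose at 4 h. Its level was 6.64, 5.59, 4.98 and 4.88 CPM in healthy mice, 14.4, 15.3, 13.8 and 10.5 CPM after sham at 4 h and 37.3, 37.3, 21.9 and 22.8 CPM after CLP at 4 h. No value of these 3 groups overlapped, while 4.27% of all genes had every sham mouse above every healthy mouse and 4.86% every CLP mouse above every sham mouse. The rise was 1.29 ± 0.30 for sham against healthy mice (edgeR adjusted p = 0.0263) and 1.14 ± 0.29 for CLP against sham (edgeR adjusted p = 0.0239). Both calls were close to the threshold. Leaving out sham replicate 1, 2, 3 or 4 or CLP replicate 1 or 2 ended the CLP call, with adjusted p up to 0.126. Leaving out healthy replicate 1, 2, 3 or 4 or sham replicate 1, 2 or 3 ended the sham call, with adjusted p up to 0.0976. At 24 h Kif23 was 2.41 to 8.84 CPM after sham and 2 to 7.58 CPM after CLP.

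At 72 h most members were higher in CLP kidneys than in sham kidneys by small amounts, and single genes seldom passed. Of 37 tested members 32 (86.5%) had a positive log2 fold change, against 53.7% of all genes, and the median was 0.33 against 0.03. The lean of the set was not tested as a set. The same sham mice were themselves low against healthy mice, with 24.3% of the 37 members positive (50.8% of all genes) and a median of -0.16. The part of this low sham level in the lean was not tested. By role the median was 0.26 for G1 genes, 0.18 for replication genes and 0.86 for mitotic genes, of which 14 of 17 were positive. At an unadjusted p under 0.05 there were 8 members (of 37), 7 of them higher, against 13.8% of all genes. Members whose CLP mice all exceeded the sham mice were Cdkn1a, Cdk2, Mki67 and Mcm3, where 4.71% of all genes did so. At 24 h 17 of 37 members were positive with a median of -0.12, and 53.3% of all genes were positive. At 4 h 22 were positive with a median of 0.07, against 50.3% of all genes.

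Mki67 encodes Ki-67, the protein stained to count dividing cells, and its promoter is printed above. It was 0.937, 1.09, 0.697 and 2.36 CPM after sham and 2.74, 2.39, 5.37 and 2.95 CPM after CLP at 72 h. Every CLP mouse was above every sham mouse, and the difference of 1.35 ± 0.54 did not pass (edgeR adjusted p = 0.196). At 24 h Mki67 was 0.202 to 1.41 CPM after sham and 0.14 to 0.587 CPM after CLP, which is 1 to 5 reads per CLP library. Birc5, encoding survivin, was 0.937, 2.96, 1.22 and 1.61 CPM after sham and 2.15, 5.42, 4.87 and 5.13 CPM after CLP at 72 h. The groups overlapped, and the difference of 1.40 ± 0.42 lay just outside the threshold (edgeR adjusted p = 0.0542) and passed by DESeq2. Cdk1, the kinase that drives entry into mitosis, was 0.872 to 1.71 CPM after sham and 1.55 to 3.03 CPM after CLP (0.86 ± 0.47, adjusted p = 0.446 by edgeR). Top2a, the topoisomerase that untangles chromosomes, was 2.49 to 4.82 CPM after sham and 3.71 to 6.04 CPM after CLP (0.21 ± 0.40, adjusted p = 0.912 by edgeR). The gene Gm45240 overlaps Mki67 on the opposite strand.

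**Figure D4:**
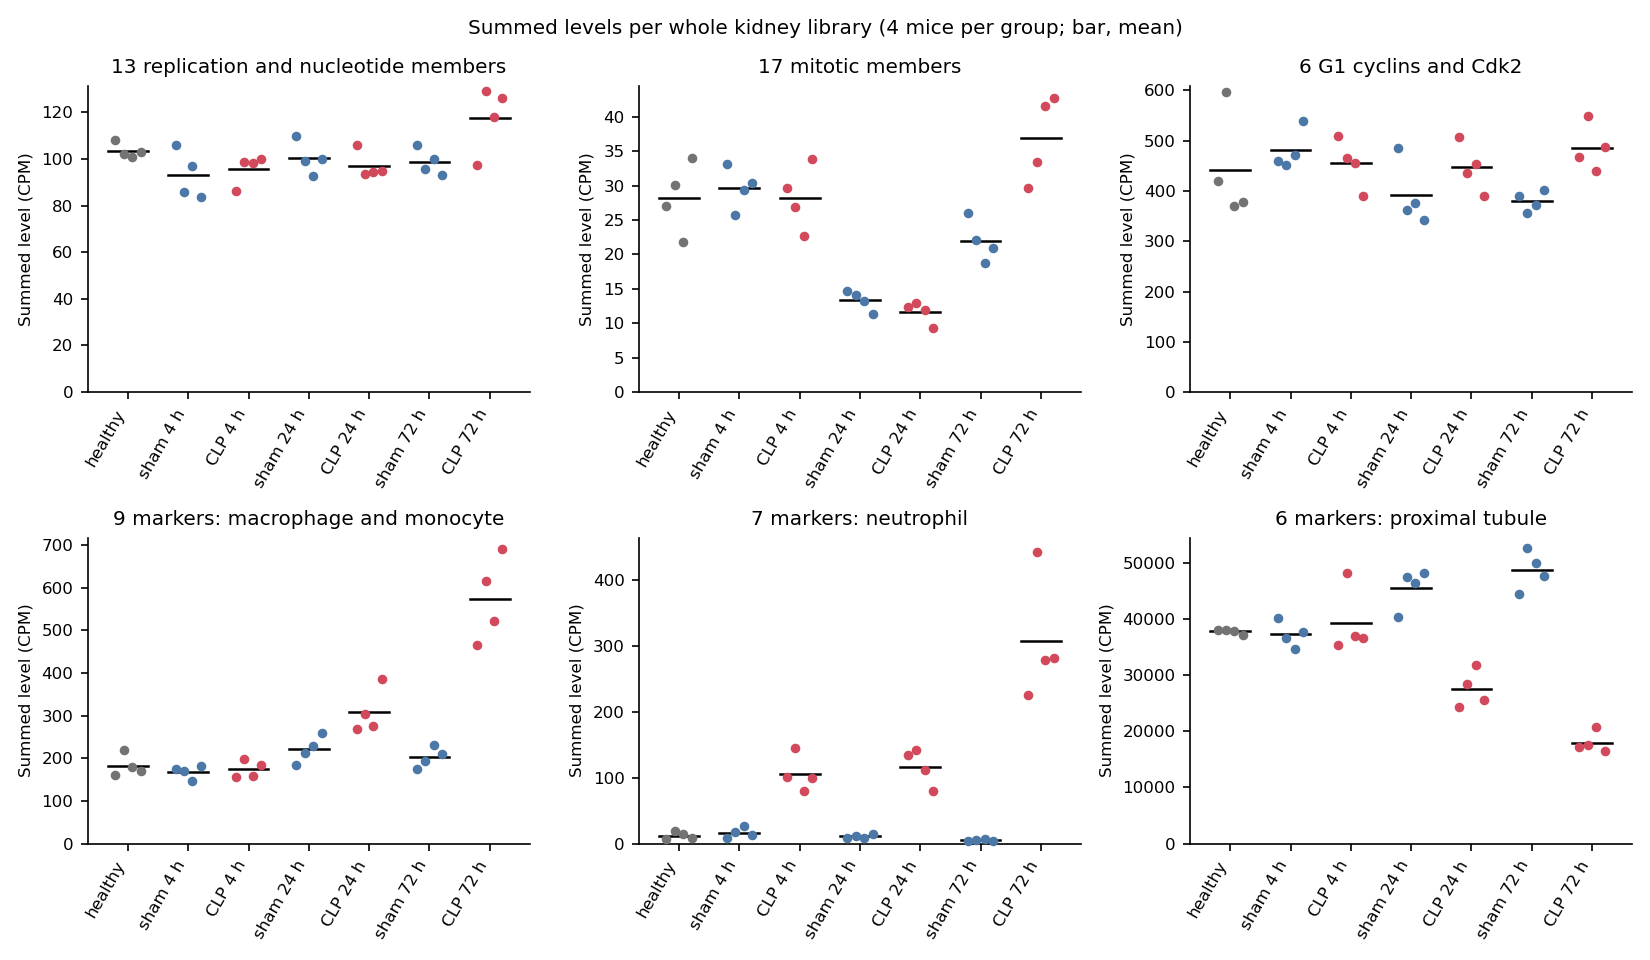
Summed level in CPM (axes from 0) of the replication genes, of 17 mitotic genes (without Kif20b, Kif23 and Hmgb2), of the G1 genes and of 3 marker lists in each whole kidney library, by group; each point is 1 mouse and the bar is the mean of 4. The mitotic sum is lowest at 24 h after sham and CLP and has its highest values at 72 h after CLP, where macrophage and neutrophil markers are also highest and proximal tubule markers lowest.

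Without Kif20b, Kif23 and the chromatin protein gene Hmgb2, 3 abundant members removed after their values had been seen, the other 17 mitotic genes summed to 29.7 to 42.8 CPM after CLP at 72 h and to 18.8 to 26 CPM after sham. These sums did not overlap, while those of all 20 did, with 51.2 to 71.8 against 56.4 to 65.1 CPM. Healthy mice had 21.8 to 34 CPM of the 17 genes. In a separate list of 31 other tested mitotic genes 24 were positive at 72 h with a median of 0.21, and 0 of 31 passed by edgeR, with 2 at an unadjusted p under 0.05 (13.8% of all genes). In that list at 24 h the centrosome kinase gene Nek2 rose (3.49 ± 1.01, edgeR adjusted p = 0.0339) from at most 0.303 CPM after sham to 0 to 2.42 CPM after CLP, and Pbk, a mitotic kinase gene with at most 1.2 CPM after sham, had 0 counts in every CLP library (edgeR adjusted p = 0.0238). Both genes had overlapping groups and few reads, and 5.28% of all genes passed at 24 h. The CLP effect at 72 h against that at 24 h was tested directly. It was positive in 31 of 37 members (and in 49.7% of all genes) with a median of 0.49, and 0 of 37 passed by edgeR, where 0.509% of all genes did. By DESeq2 also 0 passed, and 4 members had an unadjusted p under 0.05 by edgeR, against 8.28% of all genes. Mki67 had the value 2.60 ± 0.87 (edgeR adjusted p = 0.253).

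Blood cell and tubule markers also differed between CLP and sham at 72 h, where 1.74% of all genes passed as higher and 2.15% as lower. Markers of macrophages and monocytes summed to 466 to 690 CPM after CLP and 175 to 231 CPM after sham, and 6 of 9 passed as higher. Neutrophil markers summed to 225 to 442 against 3.98 to 6.62 CPM, with all 4 tested of 7 higher. Markers of granulocyte precursors, cells that divide in bone marrow, summed to 15.1 to 38.4 against 0.107 to 1.47 CPM, with all 4 tested of 8 higher. Among these, Elane, Mpo, Ctsg, Camp and Ngp were at 0 in all 4 sham libraries, and none of the 8 was at 0 in all 4 CLP libraries. Neutrophil and precursor markers were so low after sham that they could pass the filter on low counts through CLP libraries. That all tested markers of these lists were higher is therefore no separate support. Lymphocyte markers summed to 2.35 to 32.6 against 1.34 to 9.94 CPM, and 0 of 4 tested passed by edgeR, 0 also at an unadjusted p under 0.05. Proximal tubule markers summed to 16500 to 20800 CPM after CLP and 44500 to 52700 CPM after sham, and 2 of 6, Slc22a6 and Kap, fell. Injured tubule markers summed to 244 to 415 CPM after CLP and 129 to 208 CPM after sham, with no overlap, and 1 of 6, Lcn2, rose. The part of these cells in the levels of the cell cycle genes was not tested.

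At 24 h, when Cdkn1a was higher and Kif20b and Mcm6 were lower after CLP, markers of injured tubule summed to 586 to 1760 against 140 to 229 CPM. Of these 6 markers 5 rose, where 3.04% of all genes passed as higher. Proximal tubule markers summed to 24400 to 31800 against 40300 to 48100 CPM. Neutrophil markers summed to 79.5 to 142 against 8.43 to 15.1 CPM. At 4 h, when Kif23 and 4 of the 22 tested p53 targets rose, injured tubule markers summed to 227 to 577 against 159 to 234 CPM and those of neutrophils to 79.2 to 145 against 9.02 to 26.3 CPM. Macrophage markers summed to 157 to 199 against 146 to 182 CPM, and 0 of 9 passed at 4 h by edgeR, 0 also at an unadjusted p under 0.05. Their part in the gene results at 24 and 4 h was not tested either.

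Sham operation was compared with healthy mice to see what differed without CLP. At 24 and 72 h the sham libraries stand in another column block than the healthy ones, so surgery, time and block cannot be told apart. The 3 comparisons share the healthy mice, and the sham mice are also the controls of the CLP comparisons. At 24 h 15 of 17 tested mitotic genes had a negative log2 fold change for sham against healthy mice, with a median of -0.84. Of all genes 50.8% were positive, with a median of 0.01. Cdk1 was the 1 member that passed, where 6.41% of all genes passed. It was 2.96, 3.06, 2.49 and 2.54 CPM in healthy mice and 0.602, 0.811, 0.708 and 0.128 CPM at 24 h after sham. The groups were far apart, and Cdk1 fell by 2.24 ± 0.49 on the log2 scale (edgeR adjusted p = 0.00945). Birc5, Mcm4, Cdk2 and Mcm7 also had all sham mice below all healthy mice, as 7.53% of all genes did, and Pcna had them above, as 8.22% did. All 20 mitotic genes summed to 35.3 to 53.7 CPM after sham at 24 h, 29.2 to 38.1 CPM after CLP at 24 h and 60.5 to 98.2 CPM in healthy mice. CLP mice at 72 h, at 51.2 to 71.8 CPM, overlapped with the sham mice at 24 h. The 17 mitotic genes without Kif20b, Kif23 and Hmgb2, left out after their values were seen, summed to 11.4 to 14.7 CPM after sham at 24 h, 9.27 to 13 CPM after CLP at 24 h and 25.8 to 33.1 CPM after sham at 4 h. In this sum of 17 genes both 24 h groups were below every mouse of the other 5 groups. Of the 31 other mitotic genes 3 fell at 24 h after sham, Cenpf (-2.31), Nek2 (-3.28) and Smc2 (-1.29), and Spc25 rose (0.78), with a list median of -0.38. Cenpf, a kinetochore protein gene, was 1.19 to 3.33 CPM in healthy mice and 0.101 to 1.2 CPM after sham (edgeR adjusted p = 0.0271), so the highest sham mouse reached the lowest healthy one. Trp53, the p53 gene in the list of G1 regulators, fell by 1.39 ± 0.39 on the log2 scale at 24 h (edgeR adjusted p = 0.0317). Tissue markers also differed between these groups. Smooth muscle markers summed to 68.4 to 148 CPM after sham at 24 h and 176 to 225 CPM in healthy mice, and 2 of 5, Tagln and Acta2, fell. Those of proximal tubule summed to 40300 to 48100 against 37200 to 38100 CPM, and those of distal tubule and collecting duct to 4200 to 5280 against 3190 to 3910 CPM. None of these 3 sums overlapped, and their part in the mitotic gene levels was not tested.

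At 72 h after sham Mcm4 and Bub1b fell against healthy mice, 2 of 37 members, where 8.44% of all genes passed. Of the 37 members 28 had a negative log2 fold change, and 14 of 17 mitotic genes did, with a mitotic median of -0.18. Of all genes 50.8% were positive. Mcm4, another helicase subunit, was 4.62, 3.46, 5.51 and 4.35 CPM in healthy mice and 2.95, 1.4, 0.349 and 1.07 CPM at 72 h after sham. All sham mice were lower, as in 8.78% of all genes, and the fall was 1.61 ± 0.50 on the log2 scale (edgeR adjusted p = 0.0425). It was lost without healthy replicate 1, 3 or 4 or sham replicate 2, 3 or 4, with adjusted p up to 0.144 in those fits. Bub1b, encoding the checkpoint protein BubR1, had 53 counts in the 4 healthy libraries and 1 count in the 4 sham libraries. The ratio of its levels was 43.1, with a 95% counting interval of 7.42 to 1740, and the edgeR adjusted p of 0.0138 was lost without sham replicate 3 (0.0549) or 4 (0.0592). Whole kidney libraries detected 19290 ± 922 genes (SD) in healthy mice, 18584 ± 262 at 24 h and 18280 ± 379 at 72 h after sham. These later libraries stand in the other column block, and its part in the falls cannot be told apart from that of surgery and time.

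In the microdissected compartments the members gave few calls for CLP against sham, and so did all genes. In arterioles 0 of 22 members passed by edgeR at 4, 24 or 72 h, where 0.00821%, 0.0164% and 0% of all genes passed. Unadjusted p was under 0.05 for 1, 5 and 6 members, against 3.43%, 15.5% and 17.2% of all genes, and DESeq2 called 0, 1 and 3 members. In glomeruli 0 of 34 passed by edgeR against 0.11%, 0.137% and 0.0343% of all genes, with 0, 8 and 5 members at an unadjusted p under 0.05 (5.29%, 12.4% and 10.3% of all genes) and 0, 7 and 2 by DESeq2. In venules 0 of 32 passed by edgeR against 0%, 0.0813% and 0.0443%, with 1, 7 and 2 unadjusted (5.68%, 10.2% and 12.7% of all genes) and 0, 5 and 1 by DESeq2. In peritubular capillaries 0 of 19 passed by edgeR at 4 and 24 h against 0% and 0.051%. There 0 and 5 had an unadjusted p under 0.05 (3.26% and 19.3% of all genes), and DESeq2 called 0 and 4. The share of all genes passing by DESeq2 was not counted, so its calls cannot be set against the edgeR shares.

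At 72 h 4 of 19 members fell in peritubular capillaries, where 22.3% of all genes passed. They were Cdkn1b, Kif20b, Kif23 and Hmgb2, each with 0 counts in all 4 CLP libraries. Against a floor of 3 counts over the CLP group they were at least 443-fold, 208-fold, 290-fold and 150-fold lower than in sham mice, in that order. Cdkn1b had counts in all 4 sham libraries, at 52.3, 29.3, 6.17 and 39.7 CPM. Kif20b and Hmgb2 had counts in 2 of 4 sham libraries and Kif23 in 3. The size of these 3 falls hung on single sham mice. Without sham replicate 2 the log2 fold change was -1.88 for Kif20b (edgeR adjusted p = 0.61) and -7.33 for Kif23 (adjusted p = 0.0876). Without sham replicate 3 it was -5.74 for Hmgb2 (edgeR adjusted p = 0.13). Calls of these 3 genes were also lost with DESeq2 size factors, no filter or a replicate block. These CLP libraries detected 3961 ± 1178 genes (SD), against 8239 ± 1158 in sham mice, and the part of this loss in the 4 falls was not tested. Without CLP replicate 1, 3 or 4 the number of members called was 0.

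Cdkn1a passed in no single microdissected compartment for CLP against sham, but its groups stood apart in several. In glomeruli at 4 h it was 397, 258, 284 and 377 CPM after sham and 839, 792, 740 and 951 CPM after CLP, against 69.1, 48.9, 46.5 and 49.2 CPM in healthy mice. In arterioles at 4 h it was 674, 380, 231 and 737 CPM after sham and 894, 849, 923 and 806 CPM after CLP. CLP mice were all above sham mice in both compartments, as in 3.02% of all genes in glomeruli and 1.86% in arterioles, and neither difference passed (edgeR adjusted p = 0.971 in glomeruli). Groups also did not overlap, with CLP higher, in arterioles at 24 h (1.12% of all genes) and in glomeruli at 72 h (1.62%). In glomeruli at 72 h Cdkn1a was 113 to 151 CPM after CLP and 0.141 to 91.7 CPM after sham.

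The 4 laser-cut compartments of a mouse were also added up as raw counts, so that deeper libraries weigh more. Cdkn1a then passed at 24 h, as 1 of 38 members, where 0.541% of all genes passed. It was 34.5, 49.2, 53.4 and 48.8 CPM after sham and 105, 112, 159 and 276 CPM after CLP, with no overlap, as in 2.3% of all genes. The rise of 1.81 ± 0.41 (edgeR adjusted p = 0.0222) was lost without sham replicate 1, 2 or 4 or CLP replicate 4, with adjusted p up to 0.162 in those fits. Kif20b in the same sums was 33.5, 38.4, 12.8 and 5.79 CPM after sham and 0, 0, 0 and 0.212 CPM after CLP at 24 h, which did not overlap (2.58% of all genes had CLP lower in this way) and did not pass (edgeR adjusted p = 0.0507). In the single compartments at 24 h after CLP it had 0 counts in every library of arterioles, glomeruli and peritubular capillaries, and 0, 0, 0 and 0.974 CPM in venules. It passed in none of these compartments at 24 h, where sham libraries ran from 0 to 164 CPM. At 4 and 72 h 0 of 38 members passed by edgeR, where 0.0832% and 0.428% of all genes did. Unadjusted p was under 0.05 for 1 and 8 members there, against 5.49% and 14.4% of all genes, and DESeq2 called 1 and 3. The DESeq2 share of all genes was not counted here either.

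**Figure D5:**
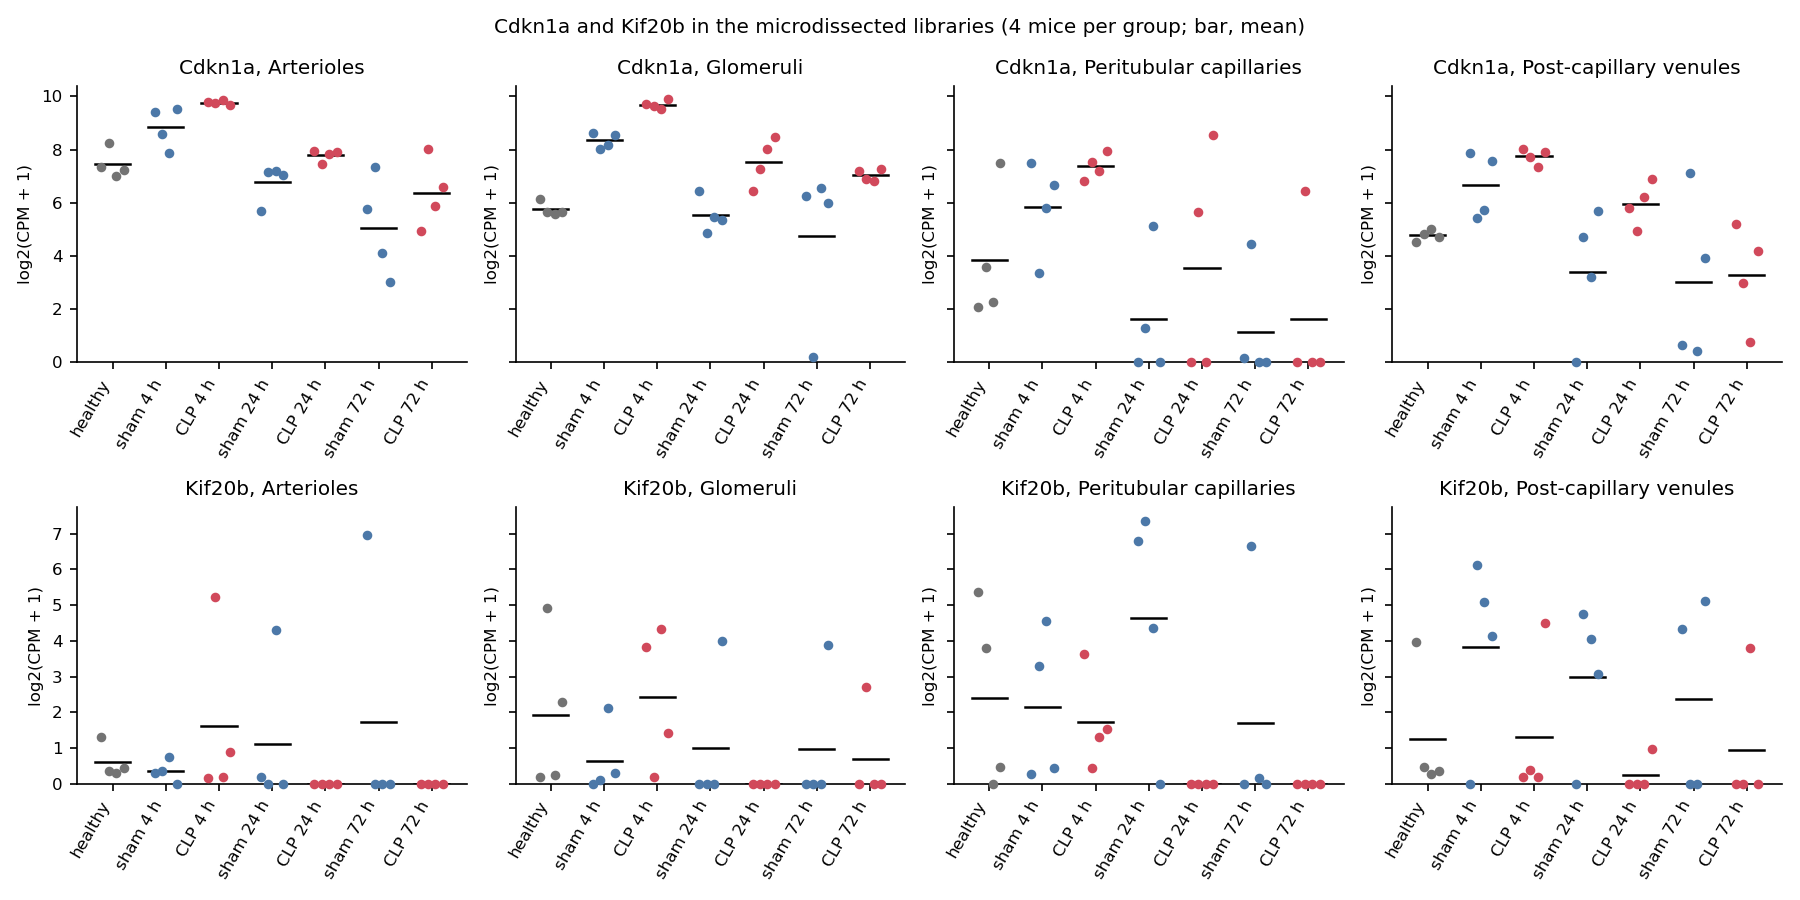
Level of Cdkn1a (top) and Kif20b (bottom) as log2(CPM + 1) in the 4 microdissected compartments, by group; each point is 1 library and the bar is the mean of 4. Cdkn1a is highest at 4 h after CLP in arterioles and glomeruli, and Kif20b is at 0 in many libraries.

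Whether the CLP effect differed between the 4 microdissected compartments was tested by interaction terms with the mouse as a block. By edgeR 0 members passed at 4, 24 or 72 h, where 0.021%, 0.161% and 1.48% of all genes passed, and 3, 1 and 3 members had an unadjusted p under 0.05, against 5.82%, 5.03% and 12.2% of all genes.

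Healthy mice showed which compartments carry these genes at rest. The 16 microdissected libraries were fitted with the mouse as a block, and each compartment was set against the mean of the other 3. Ccnd2, the D-type cyclin, was far higher in arterioles, at 1520, 2780, 1350 and 1010 CPM. Glomeruli had 303, 293, 314 and 330 CPM, venules 188, 233, 194 and 142 CPM, and peritubular capillaries 149, 49, 46.7 and 84.1 CPM. Arterioles did not overlap with any other compartment (3.27 ± 0.32, edgeR adjusted p = 2.3e-12), where 7.32% of all genes passed. Peritubular capillaries were lower than the mean of the others (-2.52 ± 0.41, edgeR adjusted p = 8.73e-06), where 6.13% passed. Ccnd2 was 64 to 94.5 CPM in whole kidney of healthy mice.

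Cdkn1a was also higher in healthy arterioles, at 161, 329, 119 and 140 CPM, than in the other compartments, at 2.98 to 175 CPM (2.74 ± 0.85, edgeR adjusted p = 0.0311). That call was lost without mouse 1, 2 or 3. Top2a had 0 counts in the 4 healthy peritubular capillary libraries and 1633 in the other 12, at least 190-fold lower with a floor of 3 counts over the group. Its call was lost without any 1 of the 4 mice, and its level in the other libraries ran from 0 to 60.9 CPM. Rrm2, a subunit of ribonucleotide reductase, was 6.59, 18.8, 14.5 and 5.81 CPM in healthy venules and at most 4.23 CPM elsewhere, with 0 counts in 10 of 12 libraries. It passed (edgeR adjusted p = 0.0225), where 0.591% of all genes did, and the call was lost without mouse 1, 2 or 4. Rrm2 could pass the filter on low counts only through the venules, where it is high. The call is therefore no separate support for a higher level there. In healthy glomeruli 0 of 21 members passed by edgeR, where 4.18% of all genes passed, with 1 at an unadjusted p under 0.05 (15% of all genes).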

How the data were processed

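The authors deposited raw counts of reads per Ensembl gene from Lexogen QuantSeq libraries, with no normalisation. The submitters' processing notes list the aligner STAR 2.7, the counters featureCounts and HTSeq 0.13, SAMtools 1.9, FastQC 0.11.8 and MultiQC 1.7, with 2 builds, GRCm38.p6 and GRCm39. Which counter and build made the table, whether strand was used and how duplicates were treated are not given in the sources used here, so positions come from GENCODE M21 (GRCm38). Healthy libraries carry 4 h in the table but 0 h in the labels, which were followed.

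The members and gene lists were chosen with earlier results of these data known. Groups were compared in R 4.3.3 with edgeR 4.0.16 (TMM scaling, filterByExpr by group, robust two-sided quasi-likelihood F test, Benjamini-Hochberg adjustment over all genes tested), fitting the 28 libraries of a compartment together. Standard errors were computed as the log2 fold change divided by the root of F. The group fit was run on simulated counts with whole kidney levels and spread only. Microdissected, summed and mouse-block fits were not tested in this way. Members that passed in any comparison are given in full, with Mki67, Top2a, Cdk1, Pcna, Ccnd1, Cdkn1a, Cdkn1b and Kif20b in any case, the others by counts and ranges. Alternatives were DESeq2 size factors, DESeq2 1.42.0, no filter, a fit that is not robust, 8 libraries alone, a replicate block and leaving out each mouse. PCR reads lacking molecular identifiers may be copies of one molecule, so intervals and the floor of 3 counts cover counting error only. No 2 of the 210 replicate pairs agreed within sampling noise. Calls at 24 h after CLP in the list of other replication genes are not reported here.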

Additional observations from a re-analysis of the deposited data

Results flagged for a closer look

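Kif20b responded to CLP differently at 24 h and at 4 h. The difference of the log2 fold changes was -2.96 (edgeR adjusted p = 0.000451), with a fold change of -3.13 at 24 h and -0.17 at 4 h.

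Single mice stood apart from the other 3 of their group in 4 of the 56 groups checked over 8 members in whole kidney. Chance alone marks about 1 in 20 groups where values are normally distributed. That rate does not hold for Bub1b at 72 h, where values were 0 or very few reads. Mcm6 was 15.1 CPM in replicate 1 of CLP at 24 h, against 4.91 to 6.34 CPM in the others. Mcm4 was 7.68 CPM in replicate 3 of sham at 4 h, against 5.21 to 5.62 CPM. Bub1b was 0.134 CPM in replicate 1 of sham at 72 h, a single read, against 0 in the others, and 0.978 CPM in replicate 1 of CLP at 72 h against 0 to 0.155 CPM.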

How the results depend on the processing

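Of 367 counts of members called under alternatives 289 stayed within 1.5 times the main count. Of 566 values of named members 473 kept their direction and side of the threshold. These values include members that had not passed in the main fit and so had no call to lose. A call was lost in 82 values and gained in 4, and the direction was reversed in 7. With DESeq2 the count of members called in whole kidney was 2 at 4 h for CLP against sham, while sham against healthy mice gave 4 at 24 h and 1 at 72 h. In arterioles it was 1 at 24 h and 3 at 72 h, in glomeruli 7 and 2, in peritubular capillaries 4 and 8, in venules 5 and 1, and in the microdissected sums 1 at 4 h, 8 at 24 h and 3 at 72 h. With the 8 libraries alone it was 1 at 24 h and 4 at 72 h in whole kidney, 1 in glomeruli at 4 h, 0 in peritubular capillaries at 72 h, and sham against healthy mice gave 1, 2 and 1 at 4, 24 and 72 h. Without the filter it was 1 in glomeruli at 24 h, 1 in peritubular capillaries at 72 h, 2 for sham at 24 h, 2 for the CLP effect at 24 h against 4 h, 0 in healthy venules and 2 in the sums at 24 h. With DESeq2 size factors it was 1 in peritubular capillaries at 72 h. Shares of all genes were not counted under these alternatives, so the counts of members have no background beside them. The cause of these shifts was not tested.

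Leaving out 1 mouse at a time gave 0 to 1 members called at 4 h, 1 to 3 at 24 h and 1 to 3 at 72 h for CLP in whole kidney. The range was 0 to 4 in peritubular capillaries at 72 h, while sham against healthy mice gave 1 to 2, 1 to 3 and 0 to 2 at 4, 24 and 72 h. It was 1 to 2 for the CLP effect at 24 h against 4 h and 0 to 1 at 72 h against 24 h, both of these added after seeing the data. In healthy mice it was 1 to 3 in arterioles, 1 to 2 in peritubular capillaries and 0 to 1 in venules, and in the sums 0 to 1 at 24 h and 0 to 1 at 72 h. Values near 0 changed sign without 1 mouse. Cdk1 at 4 h (range -0.58 to 0.25) was -0.08 without sham replicate 2 and -0.58 without CLP replicate 4. Pcna at 4 h (-0.03 to 0.17) was -0.03 without CLP replicate 3. Cdkn1b at 24 h (-0.12 to 0.24) was -0.02 and -0.05 without sham replicate 2 or 3 and -0.12 and -0.04 without CLP replicate 1 or 2.

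Equal replicate numbers belong to different mice, and in 0 of 15 comparisons did all pairs of equal number correlate above 0.1. The numbers were therefore not used for pairing. In whole kidney, however, 3 of 4 pairs were above 0.1 at 24 h (0.05 to 0.47) and 2 of 4 at 72 h (up to 0.35). The replicate block gave 1 member in peritubular capillaries at 72 h and 3 members for healthy mice against sham at 24 h, and moved no other count by over 1.5 times. In each microdissected compartment 13 to 17 of 20 mitotic members had counts in fewer than 14 of 28 libraries, at depths of 4.24 to 18.3 M counts against 4.78 to 16.3 M in whole kidney. The biological coefficient of variation was 1.4 to 1.94 there and 0.241 in whole kidney, so small differences were not detectable.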
